A study of Chlorocebus aethiops with 10 samples.

Results

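The genes described here are 45 genes of DNA replication and of the supply of its building blocks, followed in the liver of African green monkeys (Chlorocebus aethiops) given an inhibitor of the microRNAs miR-33a and miR-33b. They were taken by gene symbol: every array feature whose annotated symbol was 1 of the 45 names was used, and the mean of a gene's features stood for the gene. All 45 were found, on 50 of the 45033 features of each array, and they make up 45 of the 16583 genes that carry a symbol. The symbols come from an annotation of human genes, so the roles given below are those known for the human or yeast proteins.

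Each treated animal (n = 5) received antimiR-33a/b, an oligonucleotide with locked nucleic acid bases directed at both microRNAs, by subcutaneous injection: 20 mg/kg on day 0, then 5 mg/kg each week. Vehicle animals (n = 5) received 0.9% NaCl. All 10 were obese adult females that had eaten a high-fat diet for 12 weeks. Liver was biopsied on day 57, when treatment had run for 8 weeks, and 1 array was run per animal. The study held 20 animals in 4 groups of 5, and the groups given an inhibitor of 1 of the microRNAs were not analysed here.

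DNA replication starts with licensing. The origin recognition complex (ORC1 to ORC6) binds DNA and, with CDC6 and CDT1, loads the ring-shaped MCM2 to MCM7 complex, while geminin (GMNN) holds CDT1 in check. At the start of S phase CDC45 and the GINS complex join the ring and turn it into the active helicase. The primase and polymerase alpha then lay down primers, the clamp PCNA is placed by the RFC loader, and polymerases delta and epsilon copy the strands while RPA covers the single-stranded DNA. Deoxynucleotides come from ribonucleotide reductase (RRM1 with RRM2), thymidylate synthase (TYMS) and thymidine kinase (TK1). Most hepatocytes of an adult liver rest outside the cell cycle and enter it after injury or resection. Several members, among them the RPA subunits, PCNA and the RFC loader, also serve DNA repair in resting cells. MiR-33 has been reported to repress the cell cycle regulators CDK6 and CCND1 in liver cells.

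The deposited values are log values centred per feature, taken here as log2 although their base was not stated. A value is therefore comparable between animals but not between genes, no level can be set above or below background, and the tissue could not be checked from the levels of its markers. Values below are on this centred log2 scale, listed for animals 1 to 5 of a group, and a difference is the mean of treated animals minus that of vehicle animals. The array medians ran from -0.034 to 0.036 in treated and from -0.054 to 0.061 in vehicle animals. The SD over the features of an array ran from 0.135 to 0.179 in treated and from 0.166 to 0.221 in vehicle animals.

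Of the 45 genes, 12 rose and 2 fell in treated livers, and 31 did not pass the test. The 12 were MCM3, MCM4, MCM7 and MCM10 of the helicase and its loading, ORC5, the polymerase subunits POLA2 and POLD2, the clamp loader subunit RFC1, RPA1 and RPA2, and both ribonucleotide reductase subunits RRM1 and RRM2. The 2 that fell were CDT1 and CDC45. The rises ranged from 1.15-fold (POLD2) to 1.42-fold (MCM10). These calls rest on limma, with p-values adjusted over all 16583 genes, and a gene was called where the adjusted p was under 0.05. Over all genes 20.5% passed, 13.7% higher and 6.80% lower, against 31.1%, 26.7% and 4.44% of the 45. The median difference of the 45 was 0.097, against 0.040 over all genes, and 80.0% of the 45 differences (36 genes) were positive, against 59.2% of all genes. With the difference between expressed and silent gene families in the model, as described below, 0 of the 45 passed in limma, against 2.68% of all genes. In that fit 8 of the 45 had an unadjusted limma p under 0.05, against 4609 of all 16583 genes.

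**Figure D1:**
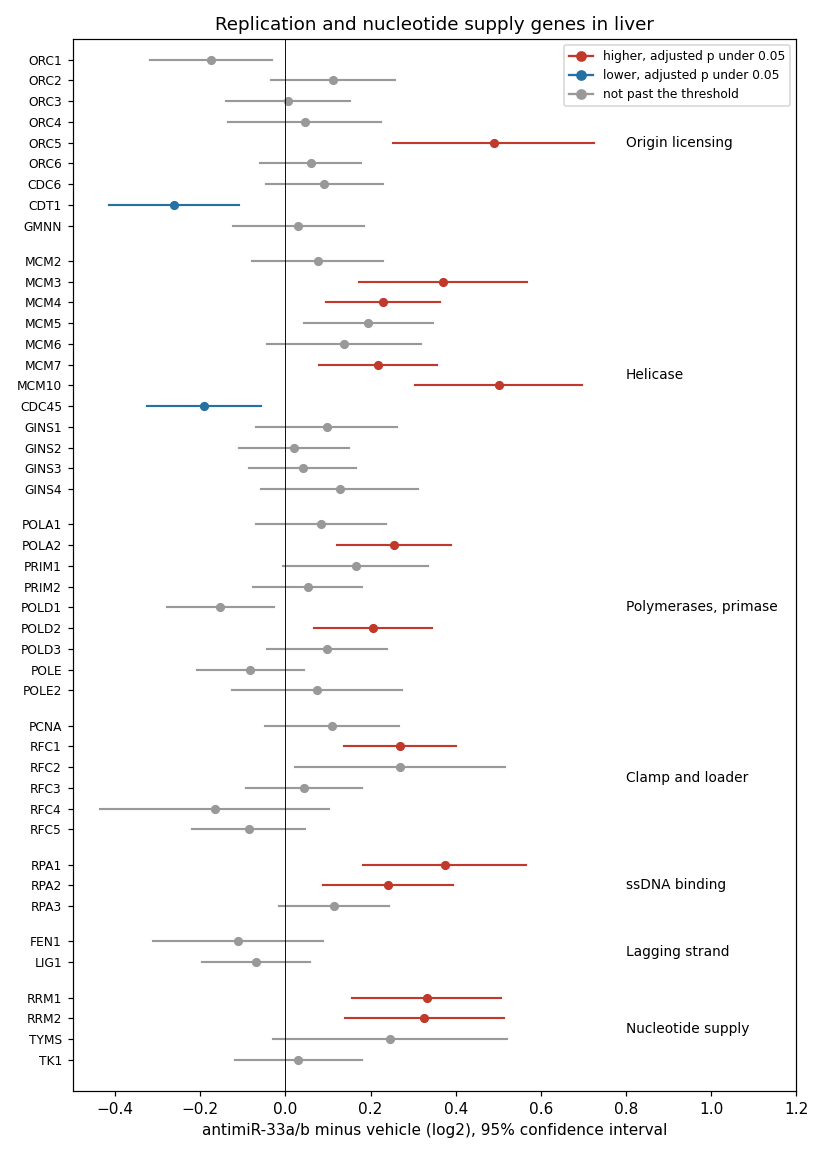
Difference between treated and vehicle livers (antimiR-33a/b minus vehicle, log2, horizontal axis) for each of the 45 genes, ordered by role, with its 95% confidence interval from limma (n = 5 animals a group). Red marks the 12 genes that rose, blue the 2 that fell and grey the 31 that did not pass, and 4 of the grey intervals (ORC1, MCM5, POLD1 and RFC2) leave out 0.

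In origin licensing, 1 of 9 genes rose and 1 fell (11.1% each, against 13.7% and 6.80% of all genes). ORC5, a subunit of the origin recognition complex, had 0.37, 0.080, 0.47, -0.038 and 0.13 in treated animals, against -0.54, -0.31, -0.33, 0.0024 and -0.26 in vehicle animals. Treated animal 4 lay below vehicle animal 4, and the other 4 treated animals lay above all vehicle animals. The means were 0.20 ± 0.21 in treated and -0.29 ± 0.19 in vehicle animals (SD, n = 5 each), a difference of 0.49 (SE 0.11, 95% confidence interval 0.25 to 0.73), or 1.4-fold, with a limma adjusted p of 0.0102 and an exact two-sided permutation p of 0.016. The smallest p that this exact test over the 252 assignments of 10 animals can give is 0.0079. ORC5 was read by a pair of features, which differed between the groups by 0.56 and 0.42 and both passed when features were tested one by one (adjusted p = 0.00945 and 0.0147).

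CDT1, which brings the MCM ring to the origin, had -0.13, 0.047, -0.065, -0.22 and 0.026 in treated animals, against 0.21, 0.23, 0.17, 0.034 and 0.33 in vehicle animals. The groups met at vehicle animal 4, which lay below treated animal 2, and the other 4 treated animals lay below all vehicle animals. CDT1 fell by 0.26 (SE 0.071, limma adjusted p = 0.0223, exact permutation p = 0.016). It missed the threshold without treated animal 4 or vehicle animal 1 or 2 (adjusted p up to 0.0540). Geminin, the inhibitor of CDT1, differed by 0.030 (adjusted p = 0.795).

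None of the other 5 ORC subunits passed the test in limma. ORC1, the subunit whose level varies through the cell cycle, had -0.20, 0.035, -0.065, -0.00090 and -0.028 in treated animals, against -0.0016, 0.12, 0.26, 0.059 and 0.18 in vehicle animals. Its difference was -0.17 with an adjusted p of 0.079, which became 0.0366 after quantile normalization and 0.0310 after all arrays were shifted to the same median. ORC2, ORC3, ORC4 and ORC6 differed by 0.11, 0.0054, 0.046 and 0.059, and CDC6, the ATPase that helps to load the ring, by 0.091, with limma adjusted p from 0.256 to 0.964.

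In the helicase group, 4 of 12 genes rose and 1 fell (33.3% and 8.33%, against 13.7% and 6.80% of all genes). The differences of 11 were positive (91.7%, against 59.2% of all genes). MCM10, which helps to activate the loaded helicase, had 0.34, 0.18, 0.28, 0.26 and 0.023 in treated animals, against -0.26, -0.065, -0.17, -0.36 and -0.56 in vehicle animals. All treated animals lay above all vehicle animals, with vehicle animal 5 lowest. The means were 0.22 ± 0.12 in treated and -0.28 ± 0.19 in vehicle animals (SD, n = 5 each), and the difference of 0.50 (SE 0.091, 95% confidence interval 0.30 to 0.70), or 1.42-fold, was the highest of the 45, with a limma adjusted p of 0.00422 and an exact permutation p of 0.0079. MCM10 stayed past the threshold in all 10 fits that left out 1 animal (adjusted p up to 0.0128).

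The 6 subunits of the MCM ring all had positive differences, and 3 of them rose. Over all genes 59.2% of the differences were positive and 13.7% of genes rose. MCM3 had 0.32, -0.035, 0.49, 0.42 and 0.082 in treated animals, against -0.12, -0.14, -0.10, -0.051 and -0.15 in vehicle animals. Treated animals 1, 3 and 4 were far above the vehicle animals and treated animal 2 just above them, so the groups did not overlap but the SD was larger in treated animals. The means were 0.26 ± 0.22 in treated and -0.11 ± 0.040 in vehicle animals (SD, n = 5 each), a difference of 0.37 (SE 0.092, limma adjusted p = 0.0154, exact permutation p = 0.0079).

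MCM4 had 0.11, 0.010, 0.21, 0.076 and -0.013 in treated animals, against -0.074, -0.19, -0.069, -0.17 and -0.25 in vehicle animals. MCM7 had 0.17, 0.023, 0.030, 0.030 and 0.12 in treated animals, against -0.071, -0.054, -0.087, -0.19 and -0.31 in vehicle animals. For both subunits the groups did not overlap. MCM4 rose by 0.23 (SE 0.062, limma adjusted p = 0.0225) and missed the threshold without treated animal 3 or vehicle animal 2 (adjusted p up to 0.0606). MCM7 rose by 0.22 (SE 0.065, adjusted p = 0.0326) and missed it without treated animal 1, 3 or 5 or vehicle animal 5 (adjusted p up to 0.0720). Both had the smallest exact permutation p, 0.0079.

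MCM5 had -0.017, 0.10, 0.28, 0.10 and -0.047 in treated animals, against 0.00050, -0.071, -0.11, -0.20 and -0.17 in vehicle animals, and its difference of 0.19 had an adjusted p of 0.0664. MCM6 differed by 0.14 (95% confidence interval -0.044 to 0.32, adjusted p = 0.26) and MCM2 by 0.076 (-0.078 to 0.23, adjusted p = 0.471). The intervals of the 6 ring subunits overlap each other, and differences between subunits were not tested. Treated animal 3 was the highest or second highest treated animal for MCM2, MCM3, MCM4, MCM5 and MCM6.

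CDC45, which joins the ring to form the active helicase, went the other way. It had -0.17, 0.0078, -0.0078, 0.016 and -0.0091 in treated animals, against 0.15, 0.18, 0.17, 0.032 and 0.27 in vehicle animals. All treated animals lay below all vehicle animals, 4 of them close together and treated animal 1 far below the rest. CDC45 fell by 0.19 (SE 0.062, limma adjusted p = 0.0437, exact permutation p = 0.0079). The call held in 1 of the 10 fits that left out an animal, the one without vehicle animal 4 (adjusted p = 0.0197), and the others gave adjusted p up to 0.0953. The GINS subunits, the partners of CDC45, differed by 0.097 (GINS1), 0.020 (GINS2), 0.040 (GINS3) and 0.13 (GINS4), with adjusted p from 0.306 to 0.839.

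**Figure D2:**
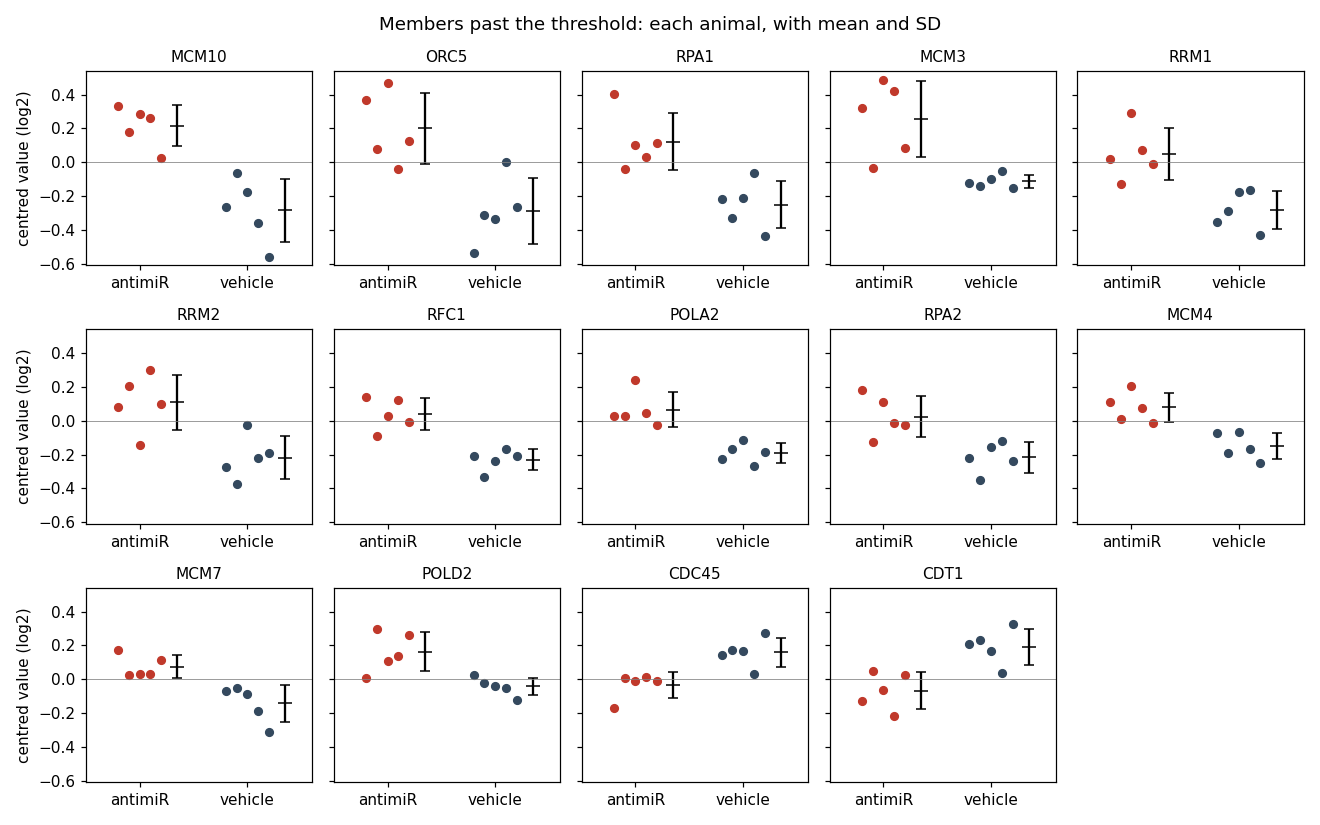
Centred log2 value of each animal (dots, treated left in red, vehicle right in dark blue, in the order of animals 1 to 5) for the 14 genes that passed the threshold, with the mean and SD of each group beside the dots. The groups do not overlap for 8 of the 12 genes that rose and for CDC45.

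Groups that did not overlap were found for 9 of the 45 genes: 8 were higher in treated animals (MCM3, MCM4, MCM7, MCM10, POLA2, RFC1, RPA1 and RRM1) and 1 was lower (CDC45). Over all genes the groups did not overlap for 8.79% with treated animals higher and 4.52% with treated animals lower.

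Among the polymerases and the primase, 2 of 9 genes rose and 0 fell in limma (22.2% called, against 20.5% of all genes). An unadjusted limma p under 0.05 was found for 3 of the 9, against 5904 of all 16583 genes. POLA2, the regulatory subunit of polymerase alpha, had 0.029, 0.028, 0.24, 0.047 and -0.024 in treated animals, against -0.22, -0.17, -0.11, -0.26 and -0.18 in vehicle animals. Treated animal 3 stood above the other treated animals, and all 5 stood above the vehicle animals. POLA2 rose by 0.25 (SE 0.062, limma adjusted p = 0.0144, exact permutation p = 0.0079) and passed in all 10 fits that left out an animal. The catalytic subunit POLA1 differed by 0.084 (adjusted p = 0.421), and the primase subunits PRIM1 and PRIM2 by 0.16 and 0.052 (adjusted p = 0.151 and 0.564).

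The differences of the subunits of polymerase delta, which copies the lagging strand, did not share a sign. Only POLD2 of them passed, and differences between subunits were not tested. POLD2, an accessory subunit, had 0.0097, 0.29, 0.11, 0.14 and 0.26 in treated animals, against 0.022, -0.025, -0.038, -0.051 and -0.12 in vehicle animals, and the groups met where treated animal 1 lay below vehicle animal 1. POLD2 rose by 0.21 (SE 0.065, limma adjusted p = 0.0401, exact permutation p = 0.016). This call held without treated animal 1 or vehicle animal 4 and was lost without any other single animal (adjusted p up to 0.0894). POLD1, the catalytic subunit, had -0.018, -0.14, -0.030, 0.014 and -0.11 in treated animals, against 0.065, 0.20, 0.13, -0.010 and 0.096 in vehicle animals. Its difference was -0.15 (95% confidence interval -0.28 to -0.027, adjusted p = 0.08), and it passed without vehicle animal 4 (adjusted p = 0.0413) and with array weights (0.0287). POLD3 differed by 0.099 (adjusted p = 0.299), and the polymerase epsilon subunits POLE and POLE2 by -0.082 and 0.075 (adjusted p = 0.328 and 0.595).

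In the clamp and its loader, 1 of 6 genes rose and 0 fell in limma (16.7% called, against 20.5% of all genes). An unadjusted limma p under 0.05 was found for 2 of the 6, against 5904 of all 16583 genes. RFC1, the large subunit of the loader, had 0.14, -0.089, 0.027, 0.12 and -0.0048 in treated animals, against -0.21, -0.33, -0.24, -0.16 and -0.21 in vehicle animals. The vehicle values lay close together, all under those of treated animals. RFC1 rose by 0.27 (SE 0.061, limma adjusted p = 0.0105, exact permutation p = 0.0079) and passed in all 10 fits that left out an animal.

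The clamp PCNA had 0.10, -0.15, 0.20, 0.021 and -0.11 in treated animals, against -0.0017, -0.15, -0.091, -0.062 and -0.17 in vehicle animals. The groups overlapped widely, and the difference was 0.11 (adjusted p = 0.303). RFC2 had 0.30, -0.089, 0.46, -0.15 and -0.047 in treated animals, against -0.025, -0.32, -0.25, -0.028 and -0.27 in vehicle animals: treated animals 1 and 3 were high and the other 3 lay within the vehicle range. Its difference of 0.27 was close to that of RFC1, with a larger SE of 0.11 and an adjusted p of 0.111. RFC3, RFC4 and RFC5 differed by 0.044, -0.17 and -0.086 (adjusted p = 0.651, 0.362 and 0.339).

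The mean of RFC4 hides features that disagreed. One of its features had -0.061, 0.069, 0.12, 0.22 and -0.018 in treated animals, against -0.12, -0.17, -0.019, -0.16 and -0.0089 in vehicle animals, a difference of 0.16 (SE 0.067, adjusted p over features = 0.0998). The second had -0.26, 0.0013, -0.0013, 0.15 and -0.12 in treated animals, against -0.093, 1.22, 0.039, 1.15 and -0.070 in vehicle animals, a difference of -0.49 (SE 0.24, adjusted p 0.162). Vehicle animals 2 and 4 were above 1 on the second feature and below all treated animals on the first. The features of RFC3 also differed in sign, at 0.13 and -0.042, while those of PCNA (0.16 and 0.064) and RFC2 (0.33 and 0.21) were both positive.

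**Figure D3:**
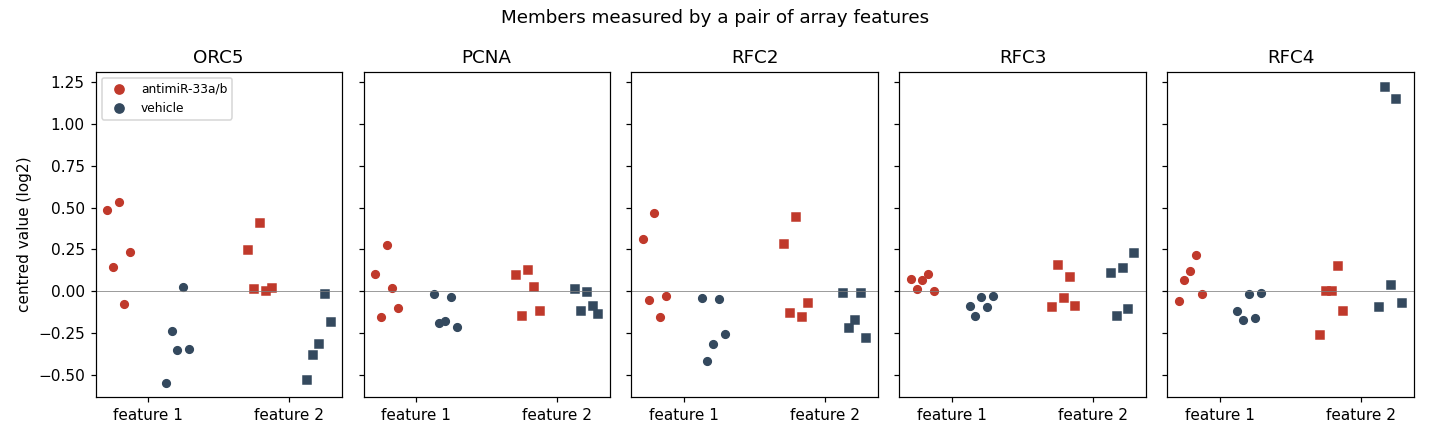
Centred log2 value of each animal (treated left in red, vehicle right in dark blue) on each of the features (circles and squares) of the 5 genes that were read by a pair of features. Both features of ORC5, of PCNA and of RFC2 have positive differences, while the second RFC4 feature is above 1 in vehicle animals 2 and 4 alone.

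Of the 3 subunits of RPA, which covers single-stranded DNA, 2 rose, against 13.7% of all genes. RPA1, the large DNA-binding subunit, had 0.40, -0.041, 0.10, 0.033 and 0.11 in treated animals, against -0.22, -0.33, -0.21, -0.065 and -0.43 in vehicle animals. Treated animal 1 was the highest, and the lowest treated animal, 2, was still above vehicle animal 4. RPA1 rose by 0.37 (SE 0.089, 95% confidence interval 0.18 to 0.57, limma adjusted p = 0.0129, exact permutation p = 0.0079) and passed in all 10 fits that left out an animal.

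RPA2 had 0.18, -0.13, 0.11, -0.015 and -0.027 in treated animals, against -0.22, -0.35, -0.15, -0.12 and -0.24 in vehicle animals, with treated animal 2 just below vehicle animal 4. It rose by 0.24 (SE 0.071, limma adjusted p = 0.0306, exact permutation p = 0.016). RPA2 missed the threshold without treated animal 1 or 3 or vehicle animal 1, 2 or 5 (adjusted p up to 0.0790). It also missed it under quantile normalization (0.130) and under the trend and robust options of eBayes (0.0565). The small subunit RPA3 differed by 0.11 (adjusted p = 0.194). In lagging strand maturation, the flap nuclease FEN1 and the ligase LIG1 had differences of -0.11 and -0.069, and neither passed (adjusted p = 0.412 and 0.427).

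In nucleotide supply both subunits of ribonucleotide reductase, the enzyme that makes deoxynucleotides, rose. RRM1, the large subunit, had 0.019, -0.13, 0.29, 0.070 and -0.010 in treated animals, against -0.35, -0.29, -0.18, -0.17 and -0.43 in vehicle animals. The groups did not overlap, though treated animal 2 lay close to vehicle animals 3 and 4. The means were 0.049 ± 0.15 in treated and -0.28 ± 0.11 in vehicle animals (SD, n = 5 each), a difference of 0.33 (SE 0.081), or 1.26-fold, with a limma adjusted p of 0.0147 and an exact permutation p of 0.0079.

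RRM2, the small subunit whose level peaks in S phase, had 0.083, 0.20, -0.14, 0.30 and 0.098 in treated animals, against -0.27, -0.38, -0.028, -0.22 and -0.19 in vehicle animals. Treated animal 3 lay below vehicle animal 3, and the other 4 treated animals lay above all vehicle animals. RRM2 rose by 0.33 (SE 0.086), or 1.25-fold, with a limma adjusted p of 0.0205 and an exact permutation p of 0.016, and it missed the threshold without vehicle animal 1 or 2 (adjusted p up to 0.0540).

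TYMS, which makes thymidylate, had 0.20, -0.18, 0.56, 0.13 and -0.24 in treated animals, against -0.073, -0.11, -0.035, -0.31 and -0.24 in vehicle animals. Treated animal 3 was the highest of all animals and treated animal 5 among the lowest, and the treated SD of 0.32 was the widest of the 45 in treated animals. The difference was 0.25 (95% confidence interval -0.030 to 0.52, adjusted p = 0.185). Thymidine kinase TK1, which salvages thymidine, differed by 0.030 (95% confidence interval -0.12 to 0.18, adjusted p = 0.787).

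Across animals, the median of the 45 genes was -0.0013, 0.028, 0.045, 0.065 and -0.0091 in treated animals, against -0.076, -0.088, 0.010, -0.080 and -0.042 in vehicle animals. Vehicle animal 3 lay among the treated animals and the other 4 vehicle animals below all of them. Treated animals had 21, 29, 30, 36 and 21 of the 45 genes above 0, against 11, 12, 27, 9 and 14 in vehicle animals. The median of the whole array was -0.034, 0.036, -0.0072, 0.035 and 0.0019 in treated animals. In vehicle animals it was -0.016, -0.011, 0.022, -0.054 and 0.061. The medians and counts of the 45 genes hold these offsets of the arrays, and the share of all genes above 0 is not given. These medians and counts are given as a description, with no test.

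A broad feature of the arrays moved with the groups. For each animal the median of 344 genes of housekeeping families (ribosomal, proteasome, respiratory chain, translation initiation and splicing proteins) minus that of 513 genes of families usually silent in liver (receptors for odours, tastes and pheromones, beta-defensins, and keratin-associated and cornified envelope proteins) was taken as a contrast of expressed with silent families. This contrast was 0.23, -0.085, 0.19, 0.030 and -0.0030 in treated animals, against -0.29, -0.16, -0.26, -0.022 and -0.30 in vehicle animals. Vehicle animal 4 lay above treated animal 2, and otherwise treated animals were higher. Because the contrast and the treatment moved together, the SE of all 45 genes was larger in a fit that held both, and the parts of the 2 cannot be told apart.

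**Figure D4:**
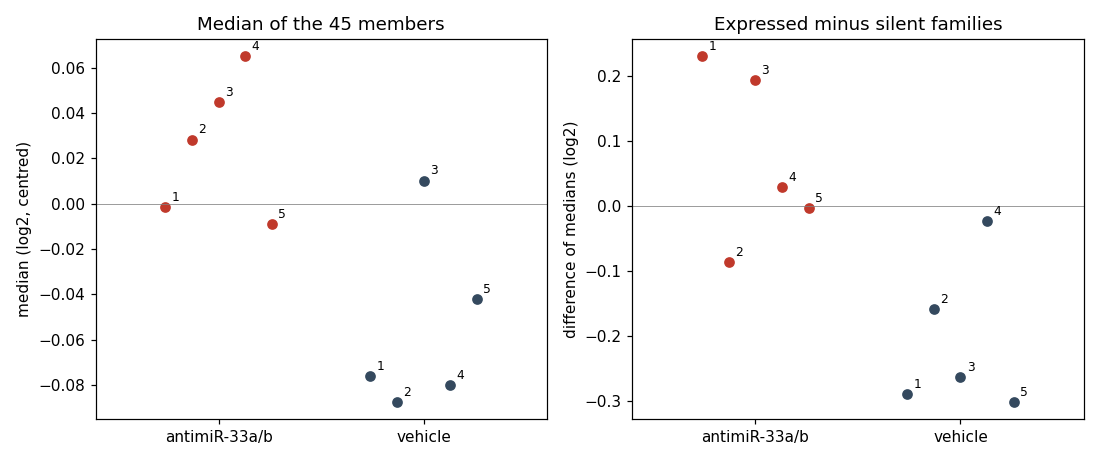
Median of the 45 genes in each animal (left panel) and median of expressed minus that of silent gene families (right panel), both on the log2 scale, treated animals in red at the left of each panel and vehicle animals in dark blue at the right, numbered as in the text. Vehicle animal 3 lies among the treated animals on the left, and vehicle animal 4 among them on the right.

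With the contrast as a covariate, all 12 genes that had risen kept positive differences and the 2 that had fallen kept negative ones, and 12 of the 14 were smaller in size. RRM2 and POLD2 were larger: RRM2 differed by 0.49 (SE 0.12, limma adjusted p = 0.0538, against 0.33 without the covariate) and POLD2 by 0.33 (SE 0.086, adjusted p = 0.0566, against 0.21). POLA2 (0.22, adjusted p = 0.146), MCM7 (0.17, 0.262), MCM10 (0.37, 0.117), MCM4 (0.16, 0.268) and RFC1 (0.18, 0.183) kept more than 50% of their size. The other 7 kept less: MCM3 differed by 0.14 (adjusted p = 0.464), ORC5 by 0.12 (0.502), RPA1 by 0.12 (0.478), RPA2 by 0.075 (0.606), RRM1 by 0.13 (0.432), CDT1 by -0.11 (0.451) and CDC45 by -0.056 (0.664). Of the 31 genes that had not passed before, 22 were larger in size with the same sign, 5 were smaller with the same sign and 4 changed sign, and none of them passed. Those that changed sign were RFC2 (-0.053, against 0.27 without the covariate), PCNA (-0.054, against 0.11), ORC3 (-0.13, against 0.0054) and POLE (0.056, against -0.082). TYMS was 0.0054, against 0.25, and GINS1, MCM6 and GINS4 were among those that were larger (0.29, 0.30 and 0.30, adjusted p = 0.0961, 0.135 and 0.137). TYMS and these 3 were named after their values were seen. The median of the clamp and its loader was -0.054 with the covariate, against 0.077 without it. The median of the 45 was then 0.13, against 0.089 over all genes. Positive differences were found with the covariate for 34 of the 45 and for 11328 of all 16583 genes. Without it they were found for 36 and 9814.

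**Figure D5:**
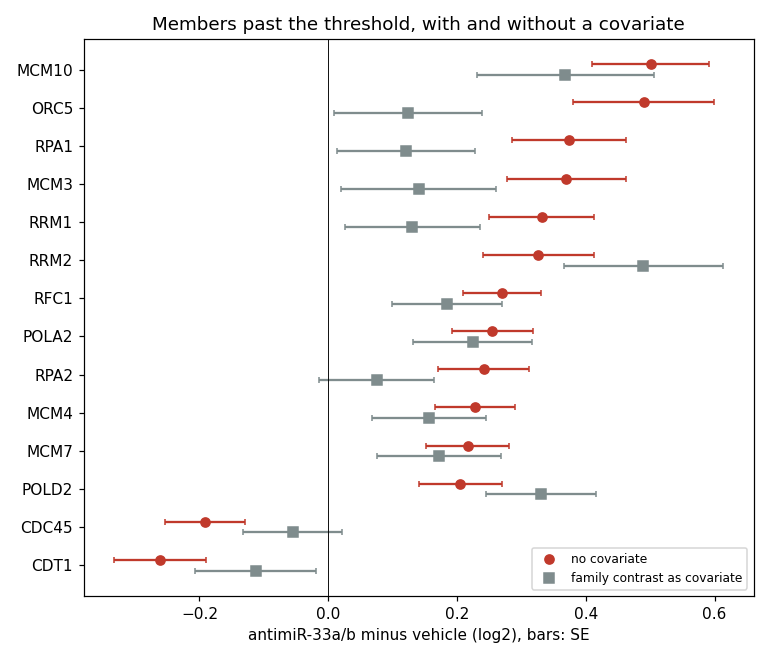
Difference between treated and vehicle livers (log2, horizontal axis, bars are SE, n = 5 animals a group) for the 14 genes that passed the threshold, without a covariate (red circles) and with the family contrast in the model (grey squares). RRM2 and POLD2 lie further from 0 with the covariate, the other 12 nearer to 0.

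Of 28 other replication factors measured, outside the 45, 5 rose and 1 fell, a called share of 21.4%, against 20.5% of all genes, with a median difference of 0.037, against 0.040 over all genes. Those with the smallest p were the topoisomerases TOP2B (0.46, SE 0.075, limma adjusted p = 0.00255) and TOP1 (0.29, adjusted p = 0.0159), which untwist DNA, and MCMBP (0.35, adjusted p = 0.00957), which binds the MCM complex. RNASEH2A, a subunit of the enzyme that removes RNA from DNA, rose by 0.26 (adjusted p = 0.0223) and missed the threshold without treated animal 3 or vehicle animal 1 (adjusted p up to 0.0616). POLD4, the small subunit of polymerase delta, was the 1 that fell, by 0.25 (adjusted p = 0.0282), and is named after its value was seen. It missed the threshold without treated animal 3, 4 or 5 or vehicle animal 2 (adjusted p up to 0.0699). With the family contrast in the model the calls of TOP2B, TOP1, MCMBP and RNASEH2A were lost, at 0.30 (adjusted p = 0.0918), 0.15 (adjusted p = 0.345), 0.22 (adjusted p = 0.224) and 0.16 (adjusted p = 0.321). POLD4 passed there, at -0.44 (adjusted p = 0.0404), as did WDHD1, a protein of the replication fork, at 0.41 (adjusted p = 0.0468), against -0.045 without the contrast (adjusted p = 0.82). The kinase CDC7, which fires licensed origins, differed by 0.20 (adjusted p = 0.0749), and the proliferation-linked topoisomerase TOP2A by -0.060 (adjusted p = 0.634).

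Of 12 genes of chromatin assembly behind the fork, 5 rose and 0 fell in limma (41.7% called, against 20.5% of all genes). An unadjusted limma p under 0.05 was found for 7 of the 12, against 5904 of all 16583 genes. NASP, a chaperone of histones H3 and H1, rose by 0.55 (SE 0.065, limma adjusted p = 0.00122) and SUPT16H, a subunit of the histone chaperone FACT, by 0.45 (SE 0.057, adjusted p = 0.00126). The groups did not overlap for either gene. Both also passed in the model that holds the family contrast, at 0.51 (adjusted p = 0.0404) and 0.37 (0.0421). Of the 12 genes, 4 had groups that did not overlap with treated animals higher and 0 with treated animals lower. Over all genes these shares were 8.79% and 4.52%. RBBP7, a histone-binding protein, rose by 0.42 (adjusted p = 0.00594) and SLBP, which binds the stem-loop of histone messenger RNA, by 0.27 (adjusted p = 0.0101). With the family contrast these calls were lost, at 0.17 (adjusted p = 0.254) and 0.23 (adjusted p = 0.129). In that model 2 of the 12 genes passed in all, against 2.68% of all genes.

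In the wider supply of nucleotides, 11 of 34 genes rose and 1 fell, a called share of 35.3%, against 20.5% of all genes. The median difference was 0.11, against 0.040 over all genes. RRM2B, the alternative small subunit of ribonucleotide reductase that serves resting cells, had 0.15, 0.45, 0.16, 0.21 and 0.21 in treated animals, against -0.39, -0.33, -0.23, -0.27 and -0.053 in vehicle animals. The groups did not overlap, and treated animal 2 was the highest. Among the 34 genes the groups did not overlap for 8 with treated animals higher and for 1 with treated animals lower. Over all genes these shares were 8.79% and 4.52%. RRM2B rose by 0.49 (SE 0.077, limma adjusted p = 0.00221), and with the covariate it differed by 0.64 (adjusted p = 0.0404), so all 3 reductase genes rose without the covariate and RRM2B alone of them passed with it. CMPK1, a kinase of pyrimidine nucleotides, rose by 0.41 (adjusted p = 0.00986), and NME2, a nucleoside diphosphate kinase, by 0.42 (adjusted p = 0.00747). NME2 is nearly identical to NME1, and the array may not separate them. CTPS2, which makes CTP, was the 1 gene that fell, by 0.48 (adjusted p = 0.00348), with all treated animals below all vehicle animals. With the family contrast in the model the calls of CMPK1, NME2 and CTPS2 were lost. Their differences were then 0.15 (adjusted p = 0.389), 0.17 (adjusted p = 0.302) and -0.28 (adjusted p = 0.13). RRM2B was the 1 gene of the 34 that passed, against 2.68% of all genes.

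Of 28 regulators of entry into S phase, 6 rose and 1 fell, a called share of 25%, against 20.5% of all genes. The 4 with the smallest p were CDK2, the kinase that drives S phase, which rose by 0.26 (SE 0.056, limma adjusted p = 0.00796), and 3 genes that hold the cell cycle back. RB1, the retinoblastoma protein, rose by 0.45 (adjusted p = 0.00977), its relative RBL2 by 0.38 (adjusted p = 0.0072) and the CDK inhibitor CDKN1B by 0.35 (adjusted p = 0.00753). For these 4 genes, picked by their small p, the groups did not overlap. The groups did not overlap for 7 of the 28 genes with treated animals higher and for 0 with treated animals lower. Over all genes these shares were 8.79% and 4.52%. E2F1, a transcription factor that switches on replication genes, was the 1 that fell, and it is named after its value was seen. It had -0.27, 0.029, -0.17, -0.00060 and -0.13 in treated animals, against 0.37, 0.25, 0.28, 0.00060 and 0.42 in vehicle animals, with vehicle animal 4 inside the treated range. E2F1 fell by 0.37 (limma adjusted p = 0.0112). With the family contrast in the model 0 of the 28 passed in limma, against 2.68% of all genes. An unadjusted limma p under 0.05 was then found for 8 of the 28, against 4609 of all 16583 genes. The differences were then 0.19 for CDK2 (adjusted p = 0.132), 0.20 for RB1 (adjusted p = 0.332), 0.15 for RBL2 (adjusted p = 0.285), 0.26 for CDKN1B (adjusted p = 0.152) and -0.082 for E2F1 (adjusted p = 0.531). The reported miR-33 targets CDK6 and CCND1 differed by 0.035 and -0.24 (adjusted p = 0.728 and 0.284), and cyclin A2 by 0.20 (0.0745).

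Of 22 genes of mitosis, 5 rose and 1 fell, a called share of 27.3%, against 20.5% of all genes. NUSAP1, a spindle protein, rose by 0.38 (limma adjusted p = 0.00842), the checkpoint gene MAD2L1 by 0.28 (adjusted p = 0.00673) and cyclin B1 (CCNB1) by 0.30 (adjusted p = 0.0165). The spindle motor KIF11 fell by 0.28 (adjusted p = 0.0351) and missed the threshold without treated animal 1, 3 or 5 or vehicle animal 1, 3 or 5 (adjusted p up to 0.0831). The proliferation antigen MKI67 differed by 0.16 (95% confidence interval -0.050 to 0.36, adjusted p = 0.26), and the mitotic kinases AURKA, AURKB, BUB1 and PLK1 by 0.17, -0.091, -0.15 and -0.063, none past the threshold. CDK1, the kinase that drives entry into mitosis, rose by 0.27 (SE 0.083, adjusted p = 0.0386), with 4 of 5 treated animals above all vehicle animals, and is named after its value was seen. It missed the threshold without treated animal 1, 3 or 4 or vehicle animal 1, 2 or 4 (adjusted p up to 0.0909). With the family contrast in the model NUSAP1 was the 1 gene of the 22 that passed (0.55, adjusted p = 0.0421), against 2.68% of all genes. MAD2L1 was then 0.32 (adjusted p = 0.0517), CCNB1 0.29 (adjusted p = 0.15), CDK1 0.25 (adjusted p = 0.234) and KIF11 -0.069 (adjusted p = 0.707).

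Some markers of cell types also differed between the groups. The called shares were 50% for hepatocyte, 36.4% for T and NK cell, 30% for endothelial, 28.6% for B and plasma cell, 27.3% for stellate cell and 12.5% for neutrophil and red cell markers, against 20.5% of all genes. In a biopsy, fewer cells of a type and less RNA per cell cannot be told apart. Of 10 hepatocyte markers, 5 rose and 0 fell, and the list's median ran from -0.10 to 0.14 in treated and from -0.37 to -0.039 in vehicle animals. Of 11 T and NK cell markers, 1 rose and 3 fell (medians -0.11 to 0.0016 in treated and -0.032 to 0.18 in vehicle animals). Of 7 B and plasma cell markers 2 rose (-0.024 to 0.17 in treated and -0.24 to 0.0076 in vehicle animals), of 10 endothelial markers 3 rose (-0.026 to 0.29 in treated and -0.32 to 0.024 in vehicle animals), and of 11 stellate cell markers 3 rose (-0.076 to 0.14 in treated and -0.24 to 0.044 in vehicle animals). In limma 0 of 11 macrophage and 0 of 7 cholangiocyte markers passed. An unadjusted limma p under 0.05 was found for 1 of each list, against 5904 of all 16583 genes. Of 8 markers of neutrophils and red cells 1 rose. Macrophage medians ran from -0.18 to 0.17 in treated and -0.45 to 0.37 in vehicle animals, cholangiocyte medians from -0.063 to 0.17 in treated and -0.14 to 0.17 in vehicle animals, and neutrophil and red cell medians from -0.016 to 0.35 in treated and -0.31 to 0.23 in vehicle animals. With the family contrast in the model 0 of the 75 markers passed in limma, against 2.68% of all genes. An unadjusted limma p under 0.05 was then found for 21 of the 75, against 4609 of all 16583 genes. The part of these cell types in the differences of the 45 genes was not tested.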

How the data were processed

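RNA of liver biopsies was read on one-colour arrays, 1 per animal, as Cy3-labelled double-stranded cDNA (1 µg of total RNA per animal), per the labels' protocols. The deposited values, taken as log2, were already centred per feature, as the values themselves show, and ran from -2.26 to 2.94. How they were scanned, background-corrected, normalized and summarised, and the log base, is not given in the sources used here. GEO's platform annotation gave 1 human gene symbol for 18188 features, and how probes match monkey transcripts was not examined.

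Features were averaged per gene and compared between 5 treated and 5 vehicle arrays by lmFit and eBayes of limma (version 3.58.1, R version 4.3.3) without covariates, adjusted by Benjamini-Hochberg over 16583 genes, at a threshold of 0.05. The fit was tested on simulated data with independent noise for each gene. Such data lack variation shared between genes, so false calls under shared variation were not examined. Exact two-sided permutation tests took all 252 assignments. The labels give no batch and no numbers that pair animals, so animals were numbered in accession order. Alternatives were quantile normalization, a shift of arrays to the same median, single features, the median of features, trend and robust eBayes, array weights, permutation tests, a filter on SD, the family contrast as a covariate and leaving out each animal. The genes, lists, the family contrast and tests were chosen with earlier results of these data known. Of the 45 genes, those past the threshold, with groups apart or with a changed call are given by animal, and of other lists up to 4 with the smallest p among those past it. Further genes of these lists were named after their values were seen. MCM5, PCNA, RFC2, TYMS and the features of RFC4 are also given by animal, outside the rule for the 45 genes. A planned description of promoter motifs was not run. Lists held 132 pathway genes, of which 124 were measured. The number of arrays sets the precision, and signal over background is unknown.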

Additional observations from a re-analysis of the deposited data

Results flagged for a closer look

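In groups of 5 animals, values that stood apart from the other 4 were looked for in 170 groups, and 12 were found, where chance gives about 1 in 20. Among the 45 genes there were 4 in 90 groups. CDC45 was -0.17 in treated animal 1, with the next value at -0.0091. GMNN was 0.23 in vehicle animal 3 (next -0.012), MCM2 was 0.14 in treated animal 3 (next -0.073), and POLA2 was 0.24 in treated animal 3 (next 0.047). Without treated animal 1 the fall of CDC45 missed the threshold (limma adjusted p = 0.0953), while POLA2 passed without any single animal.

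Among genes of the other lists, NASP was 0.28 in treated animal 3, RRM2B was 0.45 in treated animal 2, and TIMP1, a stellate cell marker, was -0.082 in treated animal 5. The hepatocyte markers ALB and AMBP were -0.10 and -0.023 in treated animal 1, and TF was -0.40 in vehicle animal 1. The endothelial marker STAB1 was -0.48 in vehicle animal 5, and the transferrin receptor TFRC was 0.017 in vehicle animal 4.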

How the results depend on the processing

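The count of 14 called genes among the 45 (12 higher, 2 lower) was 14 under quantile normalization and likewise with array medians made equal (11 higher and 3 lower in both), 14 with the median of a gene's features, 12 with trend and robust settings (11 higher, 1 lower), 15 with array weights (12 and 3), 12 of the 30 genes left by the SD filter (11 and 1) and 15 of 50 features tested singly (13 and 2). The share of all genes called was 20.5% in the main fit, 19.8% under quantile normalization and 23.4% with array medians made equal. That share was 20.5% with the median of features, 20.2% with trend and robust settings, 26.3% with array weights and 25.9% with the SD filter. The share over all single features is not given. The count among the 45 was 0 in the other 2 alternatives. In the permutation test per gene 0 of 16583 genes could pass, since the smallest adjusted p was 0.0596. An unadjusted permutation p under 0.05 was found for 18 of the 45, against 5454 of all 16583 genes. In limma with the family contrast in the model 0 of the 45 passed (0 higher, 0 lower, smallest adjusted p 0.0538). Without single animals the count ran from 8 (without vehicle animal 2) to 15 (without vehicle animal 4), from 8 to 12 for higher and from 0 to 3 for lower genes. It was 9 without treated animal 3 or vehicle animal 1, while the share of all genes called was 12.2% and 11.6%. That share was 12.9% without vehicle animal 2 and 24.8% without vehicle animal 4. MCM3, MCM10, ORC5, POLA2, RFC1, RPA1 and RRM1 passed in all 10 of these fits. CDC45 also missed the threshold with trend and robust settings (adjusted p = 0.0579) and the SD filter (0.0582), MCM7 with array medians made equal (0.0505) and POLD2 with the SD filter (0.0507). In 0 of the alternatives did a called gene change sign. Of the 124 genes in the 5 other pathway lists 36 passed (29%, against 20.5% of all genes), and 24 to 39 passed without single animals. The count was 33 to 44 under other settings, 6 with the covariate and 0 in the permutation test. The share of all genes called ran from 11.6% to 24.8% without single animals. It ran from 19.8% to 26.3% under the other settings fitted gene by gene, and was 2.68% with the covariate and 0% in the permutation test. An unadjusted limma p under 0.05 was found for 59 of the 124, against 5904 of all 16583 genes. No paired analysis was possible because the labels give no numbers shared between the groups. Weak signals cannot be told from background, since centring removed the levels.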
